A study of Mus musculus with 15 samples.

Results

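Phosphate transport and its control by vitamin D and hormones were followed here through 10 genes: Slc34a1, Slc34a3, Slc20a1, Slc20a2, Pdzk1, Cyp27b1, Cyp24a1, Vdr, Kl and Pth1r. They were taken by gene symbol from a table of 54752 genes, and all 10 were found in it. The table holds RNA sequencing counts from tubules dissected from mouse kidneys with or without Cldn10a, the claudin-10a isoform of the tight junction gene Cldn10. The 15 libraries form 4 groups: proximal convoluted tubule of WT mice (n = 4, replicates 1, 2, 3 and 6) and of Cldn10a KO mice (n = 3, replicates 4, 5 and 7), and distal convoluted tubule of WT mice (n = 4, replicates 1 to 4) and of Cldn10a KO mice (n = 4, replicates 5 to 8). Pools held 10 proximal or about 20 distal tubules from a kidney, and the diet was standard. Strain, age and the way the allele was made are not given in the labels. The labels do not tie each library to an animal of its own, so the p-values speak only of the spread among these libraries.

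Most filtered phosphate is taken back in the proximal tubule, by sodium-coupled carriers in the brush border. Parathyroid hormone and the bone hormone FGF23 remove these carriers from the membrane, the first through the receptor Pth1r and the second through FGF receptors that need Klotho (Kl) as a partner. The same tubule makes active vitamin D with Cyp27b1 and breaks it down with Cyp24a1, and both enzymes are under the control of the same hormones. In the distal tubule active vitamin D acts through its receptor Vdr on genes of calcium transport.

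The libraries held 28729339 to 51764746 counts, of which 57.8 to 71.6% were mitochondrial ribosomal RNA and 8.02 to 19.7% were nuclear protein-coding genes. Levels are given as CPM, the counts of a gene scaled to the size of its library, with that ribosomal RNA in the total. Cldn10 had 541 to 1514 counts in the WT proximal libraries and 0 in each of the 3 KO proximal libraries. In distal tubule it had 8, 3, 4 and 22 counts in WT (replicates 1 to 4) and 0, 12, 24 and 0 in KO (replicates 5 to 8), so these counts do not separate the genotypes there. Among 9 markers of proximal tubule, the summed level was 1788 to 2058 CPM in WT and 2001 to 2305 CPM in KO proximal libraries, against 1.02 to 3.68 CPM in the distal ones. Among 5 markers of distal convoluted tubule it was 749.9 to 1057 CPM in the distal libraries and 2.51 to 4.62 CPM in the proximal ones. The distal libraries also held markers of thick ascending limb (321 to 599 CPM over 5 genes), of connecting tubule and principal cells (69.3 to 152 CPM over 5 genes) and of intercalated cells (100.8 to 223.6 CPM over 5 genes).

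**Figure D1:**
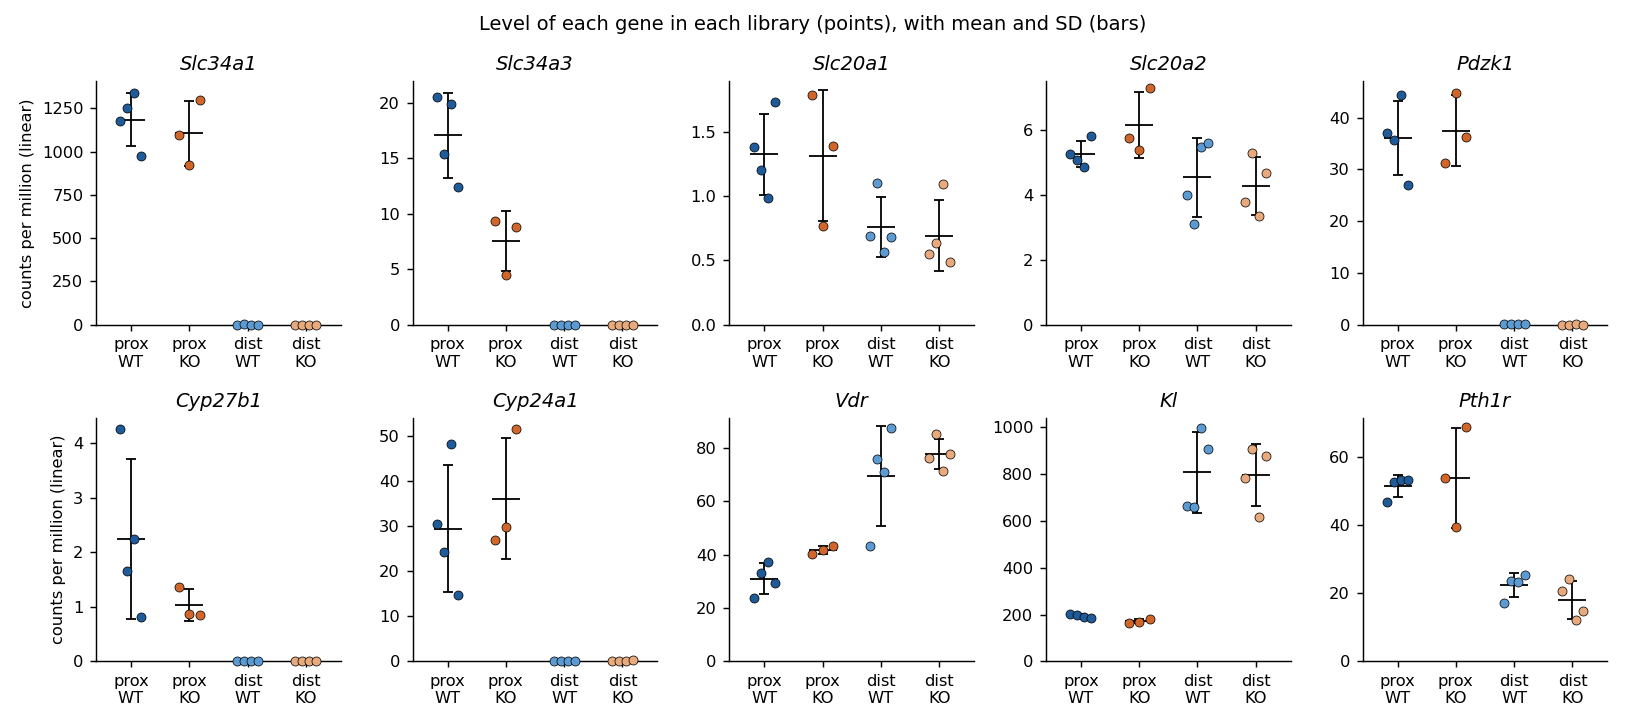
Level of each of the 10 genes in CPM on a linear axis from 0, in WT and KO proximal (prox) and distal (dist) libraries. Points are libraries and bars are the mean with the SD. Slc34a1, Slc34a3, Pdzk1, Cyp27b1 and Cyp24a1 lie at or near 0 in all 8 distal libraries, and Kl and Vdr lie highest there.

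Of the 6 genes with enough counts to pass the filter in both segments, Slc34a1 and Pth1r were higher in proximal tubule and Kl and Vdr in distal tubule, in WT and again in KO. These were calls at an adjusted p under 0.05 (limma, Benjamini-Hochberg over all genes tested). Slc20a1 and Slc20a2 did not pass in either genotype. The other 4 genes, Slc34a3, Pdzk1, Cyp27b1 and Cyp24a1, had at most 11 counts in any distal library and passed the filter only through the proximal libraries, so that they had to differ. They are described by their counts and given no test between segments. Of all genes tested in WT, 23.6% were called higher and 25.1% lower in proximal tubule. In KO these shares were 20.4% and 20.2%.

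**Figure D2:**
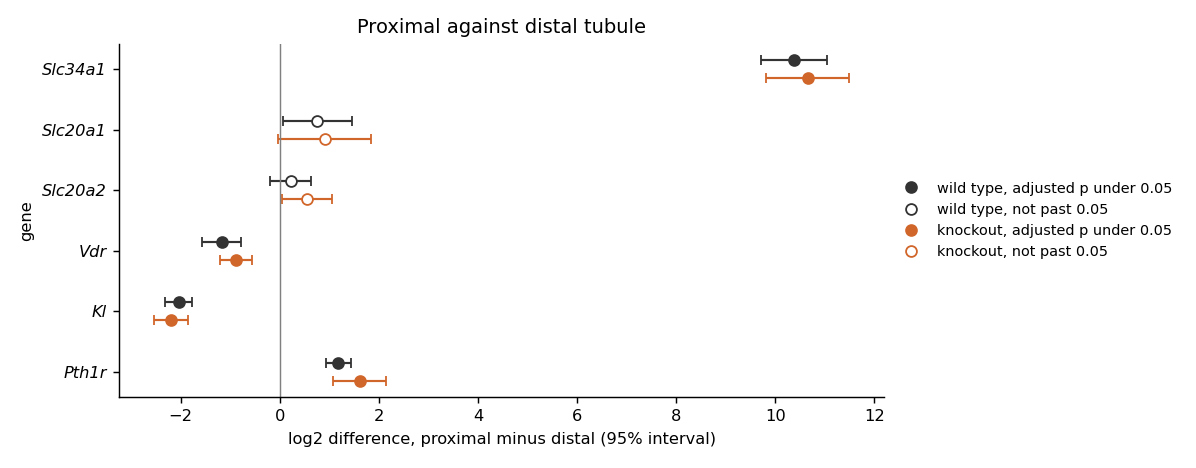
Log2 difference of proximal minus distal tubule for the 6 genes that passed the filter in both segments, with its 95% interval, in WT (dark) and KO (orange). Filled points passed an adjusted p of 0.05. Slc34a1 lies above 10 log2 units, Pth1r between 1 and 2, Kl and Vdr below 0, and the open points of Slc20a1 and Slc20a2 between 0 and 1.

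Slc34a1 encodes NaPi-IIa, the main phosphate carrier of the proximal brush border in mice. In WT proximal libraries it stood at 1177, 1251, 1338 and 974 CPM (replicates 1, 2, 3 and 6), and in KO at 1097, 923 and 1297 CPM (replicates 4, 5 and 7). The lowest and the second highest proximal values both lie in KO, and the groups overlap. In distal tubule it reached 0.482 to 1.28 CPM in WT and 0.32 to 1.18 CPM in KO. The proximal level was thus 1340-fold the distal one in WT (log2 10.38 ± 0.31 SE, adjusted p = 6.88e-13, limma) and 1480-fold in KO (log2 10.65 ± 0.39 SE, adjusted p = 2.5e-10, limma). The distal level was 0.0747% of the proximal one in WT. Over the 9 proximal markers that share had a median of 0.0931%, with a range from 0.0518 to 0.412%. Whether the distal counts come from a few proximal cells or from low expression was not tested.

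Slc34a3 encodes NaPi-IIc, the related carrier of the same membrane, for which loss in humans causes a phosphate-wasting rickets. It had 546 to 1051 counts in each WT proximal library and 0 in all 8 distal libraries. Taking 3 counts in each library as the floor, its proximal level was at least 218-fold higher than the distal one in WT and at least 97.6-fold higher in KO. These bounds cover counting error only.

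The upstream sequences of the carriers are shown because both genes had their highest levels in proximal tubule, but at very different CPM. They come from RefSeq starts on GRCm38.p6, 5′ to 3′ on the gene's strand, and only bases outside annotated exons are printed. Promoters were found for 8 of the 10 genes. Capitals mark matches to GTTAAT, the core of the site of HNF1, a factor of proximal tubule and liver, on either strand.
Slc34a1, chr13:55399398-55399647, plus strand: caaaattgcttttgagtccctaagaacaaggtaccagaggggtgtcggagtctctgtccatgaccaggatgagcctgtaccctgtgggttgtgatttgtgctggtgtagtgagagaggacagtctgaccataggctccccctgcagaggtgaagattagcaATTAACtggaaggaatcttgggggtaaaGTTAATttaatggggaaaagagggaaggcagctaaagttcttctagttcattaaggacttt
Slc34a3, chr2:25234365-25234475, minus strand: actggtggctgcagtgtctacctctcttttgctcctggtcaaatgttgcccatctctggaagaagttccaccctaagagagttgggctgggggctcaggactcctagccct
The Slc34a1 window of 250 bases ends at the RefSeq start and holds 2 matches, which begin 89 and 61 bases before it. In the GENCODE M21 annotation the gene begins farther upstream, at position 55398187, so this window lies inside the gene as annotated there. At least 1 match is found in 6.43% of all 32851 promoter windows of that length. The Slc34a3 stretch of 111 bases covers 241 to 131 bases before its start and holds no match, as do all but 3.12% of windows at that place. No match to CAAAGTCCA (HNF4), TGACGTCA (cyclic AMP response element), AGGTCA (nuclear receptors) or TATAAA lay in either stretch. The Slc34a3 stretch leaves out the bases nearest its start, so motifs there could not be found. Matches describe exact letters only, and variants of a motif were not searched.

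Per kb of exon, the order of levels in WT proximal tubule was Slc34a1, Kl, Pth1r, Pdzk1, Cyp24a1, Slc34a3, Vdr, Cyp27b1, Slc20a2 and Slc20a1. Slc34a1 had 253 ± 33.3 CPM per kb (SD, n = 4) and Slc34a3 7.24 ± 1.64. Pdzk1, Cyp24a1, Slc34a3 and Vdr overlapped with their neighbours in that order, and so did Cyp27b1 and Slc20a2. In KO proximal tubule Slc34a3, at 3.21 ± 1.13 CPM per kb (SD, n = 3), lay below Vdr at 7.4 ± 0.264 with no overlap. In WT distal tubule the order was led by Kl at 86.7 ± 18.5 CPM per kb (SD, n = 4), followed by Vdr and Pth1r, whose libraries overlapped, and by Slc20a2 at 0.731 ± 0.195.

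In KO proximal tubule the largest difference among the 10 genes was in Slc34a3. It stood at 20.6, 15.4, 19.9 and 12.4 CPM in WT (replicates 1, 2, 3 and 6) and at 9.39, 4.5 and 8.79 CPM in KO (replicates 4, 5 and 7). Every KO library was below every WT library. The mean was 17.1 ± 3.86 CPM in WT and 7.56 ± 2.67 CPM in KO (SD, n = 4 and 3), a ratio of 0.443. The fitted log2 change was -1.24 ± 0.27 (SE), with a 95% interval of -1.81 to -0.66. Its p was 0.000411 and its adjusted p 0.107 over 13229 genes (limma), so it was not called. The exact two-sided permutation p on log2 CPM was 0.0286, the smallest that 35 arrangements can give.

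The call on Slc34a3 depends on the fit. With no filter on low counts its adjusted p was 0.0416 (limma), and in 1 fit of all 15 libraries, which share 1 estimate of spread, it was 0.005 (limma). Over all 16 alternatives the adjusted p ran from 0.005 to 0.381 and the log2 change from -1.54 to -0.90. In the authors' deposited table it has a log2 fold change of -1.19 and an adjusted p of 0.00265. Of the 14748 genes with an adjusted p there, 0.922% are under 0.05, and Slc34a3 is the only one of the 10 genes among them.

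Other features of the proximal libraries also differed between the WT and KO groups. The summed level of 6 markers of early proximal tubule was 1294 to 1530 CPM in WT and 922.5 to 1073 CPM in KO, with all 6 genes below 0 in log2 change and none called. The summed level of 8 markers of straight proximal tubule was 220 to 410 CPM in WT and 700 to 847 CPM in KO, with 7 of 7 tested genes above 0 and 2 called. None of these 14 genes was without counts in either group. Each sum rests largely on 1 gene. Slc4a4 had means of 904 CPM in WT and 682 CPM in KO among the early markers. Acy3 had 231 and 506 CPM among the straight ones. The summed level of 6 endothelial markers was 10.3 to 20.8 CPM in WT and 17.7 to 32.1 CPM in KO, with all 6 above 0 in log2 change (median 0.67) and none called. The part of these shifts in the Slc34a3 result was not tested. In pooled tubules, fewer cells of a type and less RNA per cell cannot be told apart. WT replicate 6 and KO replicate 7 carry library numbers from another range than the rest. They stood at 12.4 and 8.79 CPM, and without both the log2 change of Slc34a3 was -1.54 (adjusted p = 0.0803, limma).

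**Figure D3:**
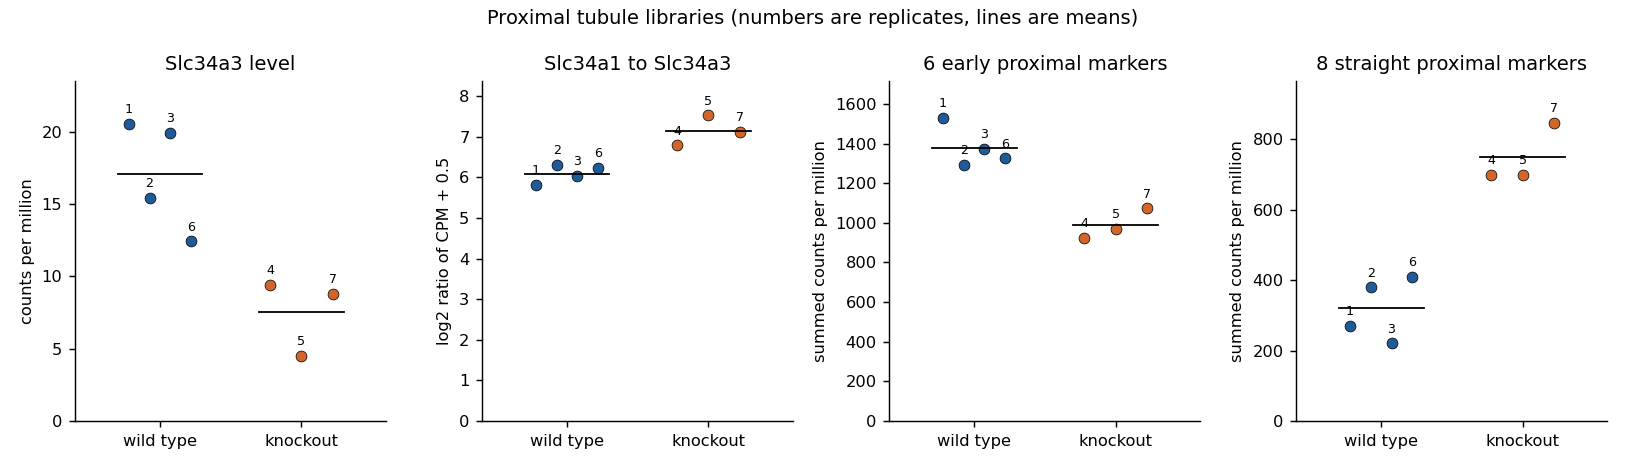
The 7 proximal libraries, WT (blue) and KO (orange), with replicate numbers and group means as lines: Slc34a3 in CPM, the log2 ratio of Slc34a1 to Slc34a3, and the summed CPM of 6 early and 8 straight proximal markers. All axes start at 0. The groups do not overlap in any of the 4 panels. The sums are carried mostly by Slc4a4 (early) and Acy3 (straight).

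The log2 change of Slc34a1 in KO proximal tubule was -0.12 ± 0.16 (SE), with an interval of -0.47 to 0.24 (adjusted p = 0.908, limma). The CPM ratio of Slc34a1 to Slc34a3 was 57.3, 81.1, 67.2 and 78.4 in WT and 117, 205 and 148 in KO, in replicate order. On the log2 scale with 0.5 CPM added, this is 6.09 ± 0.222 in WT and 7.15 ± 0.368 in KO (SD, n = 4 and 3), a difference of 1.06. The exact two-sided permutation p was 0.0286, the smallest the design allows, and 0.143 after adjustment over the 5 ratios examined. The ratios did not overlap between the groups, but the difference did not pass the adjusted threshold.

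Slc20a1 and Slc20a2 encode PiT-1 and PiT-2, carriers that are widely expressed and serve the phosphate needs of many cells, with PiT-2 also present in the brush border. Slc20a2 was found at 4.87 to 5.8 CPM in WT and 5.39 to 7.29 CPM in KO proximal tubule, and at 3.09 to 5.61 CPM in WT and 3.33 to 5.29 CPM in KO distal tubule. Slc20a1 was found at 0.985 to 1.73 and 0.77 to 1.78 CPM in WT and KO proximal tubule, and at 0.568 to 1.1 and 0.484 to 1.09 CPM in WT and KO distal tubule. Slc20a2 overlaps Smim19, which lies on the other strand and had means of 2.31 to 3.09 CPM, so reads in the shared stretch cannot be told apart. The 4 groups overlapped for Slc20a1. For Slc20a2 every KO proximal library was above every KO distal library, but narrowly, with the lowest at 5.39 CPM and the highest at 5.29 CPM. The share of all genes with segments apart in this way is not given here.

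The segment difference of Slc20a2 was 0.22 ± 0.20 log2 (SE) in WT, with an interval of -0.19 to 0.64 (adjusted p = 0.372, limma), and 0.55 ± 0.23 in KO (adjusted p = 0.0725, limma). For Slc20a1 it was 0.76 ± 0.33 in WT (adjusted p = 0.0691, limma) and 0.91 ± 0.43 in KO (adjusted p = 0.115, limma). Slc20a1 passed the threshold in WT without proximal replicate 3 (adjusted p = 0.0362, limma) or without distal replicate 2 (adjusted p = 0.0463, limma). Both genes passed it in KO without proximal replicate 5 (adjusted p = 0.0281 for Slc20a1 and 0.0497 for Slc20a2, limma) and with sample quality weights (0.0308 and 0.0456). In KO against WT neither was called. The proximal log2 change was 0.22 (interval -0.20 to 0.63) for Slc20a2 and -0.07 (interval -0.85 to 0.70) for Slc20a1. The log2 ratio of Slc20a2 to Slc20a1 differed by 0.235 between KO and WT in proximal tubule (exact permutation p = 0.314), from 0.0792 without KO replicate 5 to 0.461 without KO replicate 4, and by 0.0241 in distal tubule (exact permutation p = 0.914).

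Pdzk1 encodes a scaffold with PDZ domains that binds phosphate carriers in the brush border. It stood at 37, 35.7, 44.4 and 27.1 CPM in WT proximal libraries and at 31.3, 44.8 and 36.2 CPM in KO, and the groups overlap. The KO log2 change was 0.05 ± 0.19 (SE), with an interval of -0.36 to 0.45 (adjusted p = 0.971, limma). In distal tubule it had 3, 9, 4 and 2 counts in WT and 0, 0, 2 and 0 in KO. Its proximal level was 317-fold the distal one in WT, and in KO the ratio of summed counts was 2940 with an exact 95% counting interval of 812 to 24300. The fitted difference between the segments in the KO change was 2.60 ± 1.17 log2 (SE), with a p of 0.0378 and an adjusted p of 0.852 (limma), and it rests on those few distal counts. An antisense transcript, 4930442L01Rik, overlaps Pdzk1 and had a mean of 0.916 CPM in WT proximal tubule. Gpr89, on the other strand, also overlaps Pdzk1, with means of 3.07 to 3.91 CPM over the 4 groups. The strand setting of the counting is not given, so reads of these genes cannot be told apart where they overlap, which bears on the few distal counts of Pdzk1.

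Cyp27b1 encodes the enzyme that makes active vitamin D. It stood at 4.26, 1.66, 2.24 and 0.819 CPM in WT proximal libraries (replicates 1, 2, 3 and 6) and at 1.37, 0.87 and 0.859 CPM in KO (replicates 4, 5 and 7). The 3 highest values lie in WT, but WT replicate 6 was the lowest of all 7, so the groups overlap. The log2 change in KO was -0.96 ± 0.52 (SE), with an interval of -2.08 to 0.15 (adjusted p = 0.737, limma). Over the 16 alternatives the log2 change ran from -1.34 (without WT replicate 6) to -0.59 (without WT replicate 1), and it was not called in any of them. The authors' deposited table gives a log2 fold change of -1.14 and an adjusted p of 0.439. The gene had 0 counts in all 8 distal libraries, so that the proximal level was at least 28.6-fold higher than the distal one in WT and at least 13.3-fold higher in KO, on the same floor.

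The bases before the start of Cyp27b1 are shown because the gene was not detected in distal tubule at this depth. No exact match to any of the 5 motifs lay among them, so there are no capitals. Variants of these letters, such as the tatatat near the end of the stretch, were not searched, so the absence of a site is not shown. TATAAA alone is found in 12.4% and AGGTCA in 14% of all windows of that length.
Cyp27b1, chr10:127047996-127048245, plus strand: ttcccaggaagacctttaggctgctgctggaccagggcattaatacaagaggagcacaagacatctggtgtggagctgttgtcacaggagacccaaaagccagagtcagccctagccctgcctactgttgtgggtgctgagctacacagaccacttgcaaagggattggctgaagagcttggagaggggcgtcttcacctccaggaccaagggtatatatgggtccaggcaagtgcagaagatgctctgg

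Cyp24a1 encodes the enzyme that inactivates vitamin D, and the gene is itself a target of Vdr. It stood at 30.5, 24.2, 48.2 and 14.7 CPM in WT proximal libraries and at 26.8, 29.9 and 51.4 CPM in KO, in replicate order. It varied widely within each group, with a coefficient of variation of 47.9% in WT and 37.2% in KO. The log2 change in KO was 0.35 ± 0.33 (SE), with an interval of -0.35 to 1.05 (adjusted p = 0.855, limma), and without WT replicate 6 and KO replicate 7 it was -0.23. In distal tubule it had 0, 0, 0 and 2 counts in WT and 0, 2, 2 and 11 counts in KO. The ratio of summed distal counts, KO to WT, was 7.6 with an exact 95% counting interval of 1.77 to 68.5. KO replicate 8 gave 11 of the 15 KO counts, the exact permutation p over the distal libraries was 0.143, and the gene did not pass the filter there. Pfdn4 overlaps Cyp24a1 on the other strand and had means of 0.501 CPM in WT and 0.438 CPM in KO distal tubule. Reads in the shared stretch cannot be told apart, which bears on the few distal counts of Cyp24a1. In WT the ratio of proximal to distal summed counts was 2390, with an exact 95% counting interval of 661 to 19700.

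The CPM ratio of Cyp24a1 to Cyp27b1, which sets breakdown against synthesis, was 7.17, 14.6, 21.6 and 18 in WT and 19.7, 34.3 and 59.9 in KO proximal libraries. The highest WT value lies above the lowest KO value. On the log2 scale with 0.5 CPM added, the ratio was 3.48 ± 0.594 in WT and 4.53 ± 0.694 in KO (SD, n = 4 and 3). The difference of 1.06 had an exact permutation p of 0.0857, and 0.214 after adjustment over the 5 ratios. It ran from 0.695 without KO replicate 7 to 1.39 without KO replicate 4. In distal tubule Cyp27b1 had no counts, so the ratio there is set by the added CPM (a difference of 0.192 with 0.5 CPM, 0.638 with 0.1 CPM and 0.104 with 1 CPM) and is not read.

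Vdr, the nuclear receptor for active vitamin D, was found in both segments. It stood at 23.7, 33.1, 37.4 and 29.4 CPM in WT proximal libraries and at 40.4, 41.8 and 43.3 CPM in KO. Every KO library was above every WT library. The log2 change was 0.44 ± 0.17 (SE), with an interval of 0.08 to 0.81 (adjusted p = 0.578, limma), so it was not called. The exact permutation p was 0.0571. Over all alternatives the log2 change ran from 0.32 to 0.53, and it was not called in any of them. In distal tubule Vdr stood at 43.3, 75.9, 71.2 and 87.3 CPM in WT and at 76.3, 85.3, 71.4 and 77.9 CPM in KO, and the groups overlap, with WT replicate 1 lowest (log2 change 0.20 ± 0.16 SE, adjusted p = 0.817, limma).

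Proximal Vdr was lower than distal Vdr by -1.17 ± 0.19 log2 (SE) in WT (adjusted p = 6.38e-05, limma) and by -0.88 ± 0.15 in KO (adjusted p = 0.000226, limma). The difference between those differences was 0.26, with an interval of -0.26 to 0.79 (adjusted p = 0.994, limma).

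Kl encodes Klotho, which lets FGF receptors respond to FGF23. It stood at 204, 198, 191 and 184 CPM in WT and at 164, 170 and 180 CPM in KO proximal libraries. The groups are close but do not overlap. The log2 change was -0.19 ± 0.13 (SE), with an interval of -0.48 to 0.09 (adjusted p = 0.791, limma), and the exact permutation p was 0.0286, the smallest the design allows. In distal tubule it stood at 664, 661, 999 and 909 CPM in WT and at 782, 908, 618 and 877 CPM in KO, and the groups overlap (log2 change -0.01 ± 0.15 SE, interval -0.32 to 0.30, adjusted p = 0.99, limma). Proximal Kl was thus 0.241 of the distal level in WT (log2 -2.04 ± 0.12 SE, adjusted p = 1.77e-09, limma) and 0.215 in KO (log2 -2.19 ± 0.16 SE, adjusted p = 9.02e-08, limma).

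The Kl promoter window is shown as that of the gene with the highest distal level among the 10. It has 66.8% G and C, where the median over all windows is 52.4% and that of Slc34a1 is 46.4%. It held no exact match to the 5 motifs, and variants were not searched.
Kl, chr5:150952357-150952606, plus strand: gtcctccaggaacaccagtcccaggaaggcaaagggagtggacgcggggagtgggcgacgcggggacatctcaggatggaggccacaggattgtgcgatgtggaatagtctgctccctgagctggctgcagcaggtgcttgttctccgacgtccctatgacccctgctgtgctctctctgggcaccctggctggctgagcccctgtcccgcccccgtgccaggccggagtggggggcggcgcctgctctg

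Pth1r, the receptor for parathyroid hormone, was the only hormone receptor of the 10 with a higher proximal level. It stood at 46.8, 52.7, 53.4 and 53.1 CPM in WT and at 53.8, 39.3 and 68.7 CPM in KO proximal libraries. The KO libraries lie on both sides of the WT ones, and the log2 change was 0.02 ± 0.18 (SE), with an interval of -0.38 to 0.42 (adjusted p = 0.986, limma). In distal tubule it stood at 17.2, 23.6, 23.4 and 25.5 CPM in WT and at 20.7, 24.3, 12.2 and 14.9 CPM in KO. These groups overlap (log2 change -0.37 ± 0.19 SE, interval -0.76 to 0.01, adjusted p = 0.687, limma). Proximal Pth1r was 2.3-fold the distal level in WT (log2 1.19 ± 0.12 SE, adjusted p = 5.22e-07, limma) and 2.99-fold in KO (log2 1.61 ± 0.25 SE, adjusted p = 9.13e-05, limma).

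**Figure D4:**
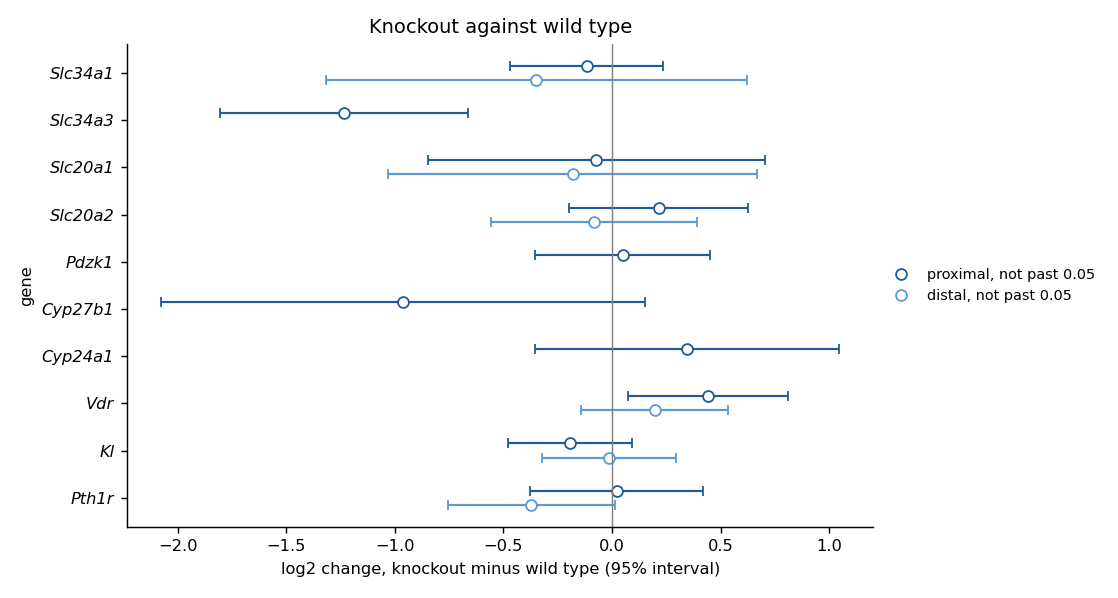
Log2 change of KO minus WT for each gene with its 95% interval, in proximal (dark) and distal (light) tubule. Open points did not pass an adjusted p of 0.05, and the 4 genes without a distal point did not pass the filter on low counts there. The interval excludes 0 for Slc34a3 and Vdr in proximal tubule.

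Set together, 0 of the 10 genes were called in KO proximal tubule (limma), with 2 at an unadjusted p under 0.05, Slc34a3 and Vdr. Of all 13229 genes tested there, 0.166% were called, with 976 at an unadjusted p under 0.05. WT and KO libraries lay fully apart for 3 of the 10 genes (Slc34a3, Vdr and Kl) and for 7.97% of all genes. The median log2 change was -0.03 over the 10 genes and -0.01 over all genes. In distal tubule 6 of the 10 genes passed the filter and 0 were called (limma), with 0 at an unadjusted p under 0.05. Of all 12968 genes tested there 0.0% were called, with 925 at an unadjusted p under 0.05. None of the 6 had groups apart, against 3.82% of all genes. For the difference between segments in the KO change, 0 of the 10 genes were called (limma), with 1 at an unadjusted p under 0.05, Pdzk1. Of all 15279 genes 0.0% were called, with 849 at an unadjusted p under 0.05. A model with a trend in place of weights (limma) called 0 of the 10 genes in each of these 3 comparisons.

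Genes that work beside the 10 were called between segments and not between genotypes. Of all genes tested, 23.6% were called higher and 25.1% lower in WT proximal tubule, and 20.4% and 20.2% in KO. The median log2 difference over all genes was -0.02 in WT and -0.04 in KO. In each list, genes that passed the filter only through 1 segment had to differ between segments. Counts over all genes at an unadjusted p under 0.05 are given above. Of 9 other genes of phosphate and pyrophosphate handling, 5 were higher and 3 lower in WT proximal tubule among 8 tested, with a median log2 difference of 0.94. Alpl, tissue alkaline phosphatase, was higher by 8.42 ± 0.83 log2 (SE, adjusted p = 3.29e-07, limma), at 101.3 ± 27.6 CPM in proximal and 0.437 ± 0.304 CPM in distal tubule (SD, n = 4 each). Xpr1, the phosphate exporter, was higher by 1.12 ± 0.11 (SE, adjusted p = 2.5e-07, limma), and Slc9a3r1, the scaffold NHERF1 that binds NaPi-IIa, by 1.78 ± 0.17 (SE, adjusted p = 2.08e-07, limma). In KO proximal tubule 0 of 7 tested were called (limma), while 2 had an unadjusted p under 0.05, and the median was -0.25. The 2 were Slc25a3, the mitochondrial phosphate carrier, at -0.53 ± 0.22 log2 (SE, adjusted p = 0.627, limma), and Pdzk1ip1 at -0.35 ± 0.16 (SE, adjusted p = 0.67, limma). In KO distal tubule 0 of 9 were called (limma), with 1 at an unadjusted p under 0.05, Slc9a3r2, at -0.66 ± 0.23 log2 (SE, adjusted p = 0.67, limma). For the difference between segments in the KO change 0 of 9 were called (limma), with 3 at an unadjusted p under 0.05. Among them Ank had proximal means of only 0.0099 CPM in WT and 0.266 CPM in KO. Of the lists below, 0 of 11 tested genes of vitamin D, 1 of 15 of signalling and 0 of 8 of calcium had such a p, with 0 called.

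Of 12 other genes of vitamin D handling, 8 of 10 tested were higher in WT proximal tubule and 0 lower, with a median log2 difference of 5.22. In KO it was 9 of 11. Only 7 of the 12 passed the filter within distal tubule. Those that passed only through the proximal libraries, such as Gc at 0 CPM in distal tubule, had to differ. The counts and the median are thus a description and not a test. Lrp2 (megalin) and Cubn (cubilin) take up filtered vitamin D with its binding protein. Lrp2 stood at 1685 CPM in WT proximal and 10 CPM in WT distal tubule, a log2 difference of 7.37 ± 0.13 (SE, adjusted p = 2.53e-15, limma), and Cubn at 415.5 ± 45.2 and 0.676 ± 0.399 CPM (SD, n = 4 each). In KO against WT 0 of 11 were called in proximal tubule (limma), while 2 had an unadjusted p under 0.05, and the median was -0.23. These were Gc, the binding protein itself, at -0.78 ± 0.30 log2 (SE, adjusted p = 0.578, limma), and Rxra, the partner of Vdr on DNA, at -0.51 ± 0.21 (SE, adjusted p = 0.593, limma). In distal tubule 0 of 7 were called (limma), with 0 at an unadjusted p under 0.05.

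Of 21 genes of parathyroid hormone and FGF23 signalling, 2 were higher and 8 lower in WT proximal tubule among 15 tested, with a median of -0.46. Fgfr4 and Fgfr2 were split between the segments. Fgfr4 stood at 3.88 ± 0.642 CPM in WT proximal and 0.0626 ± 0.0711 CPM in WT distal tubule (SD, n = 4 each). Fgfr2 stood at 0.00518 CPM in WT proximal and 10.8 CPM in WT distal tubule. Each passed the filter only through the segment where it was high, so it had to differ and is given no test. Adcy6, an adenylyl cyclase, was lower in proximal tubule by -2.01 ± 0.19 (SE, adjusted p = 1.89e-07, limma). In KO 0 of 14 were called in proximal and 0 of 13 in distal tubule (limma), with 1 at an unadjusted p under 0.05 in each.

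Of 8 genes of distal calcium transport, many of them targets of vitamin D, 6 of 7 tested were lower in WT proximal tubule and 0 higher, with a median log2 difference of -10.4. Only 3 of the 8 passed the filter within proximal tubule. Those that passed only through the distal libraries, such as Trpv5 at 0.00474 CPM in WT proximal tubule, had to differ. The count and the median are thus a description and not a test. S100g (calbindin-D9k) stood at 1371 ± 311 CPM in WT distal tubule, Calb1 (calbindin-D28k) at 999.2 ± 213 CPM and Slc8a1, the sodium-calcium exchanger, at 953.7 ± 223 CPM (SD, n = 4 each). In KO distal tubule 0 of 8 were called (limma), with 1 at an unadjusted p under 0.05, S100g, at 935.4 ± 162 CPM (SD, n = 4) and a log2 change of -0.54 ± 0.15 (SE, adjusted p = 0.662, limma). The median over the 8 was -0.02. Beside this, all 5 markers of connecting tubule and principal cells and all 5 of intercalated cells lay below 0 in log2 change in KO distal tubule, with medians of -0.71 and -0.36. Their summed levels were lowest in KO replicate 5, at 69.29 and 100.8 CPM. The other KO libraries, at 112.9 to 142.8 and 165.6 to 192 CPM, lay inside the WT ranges of 106.9 to 151.6 and 156.9 to 223.6 CPM. All 5 markers of thick ascending limb lay above 0, with a median of 0.59. All 6 endothelial markers lay below 0, with a median of -0.34 and a summed level of 43.69 to 56.52 CPM in WT and 37.75 to 40.68 CPM in KO, which do not overlap. None of these 21 genes was called. The part of that in S100g, or in the distal values of Kl and Vdr, was not tested.

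As a description with no test, the genes whose library-to-library pattern was most like that of Slc34a1 over the 7 proximal libraries, after the genotype means were taken out, were Eif1 (Pearson r = 0.992), Lrpap1 (0.99) and Trp53inp2 (0.98), among 2564 genes of at least 10 CPM. For Kl over the 8 distal libraries they were Ogdh (0.986), Tmx2 (0.975) and Klk1 (0.975), among 2263 genes. The libraries share depth and composition.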

How the data were processed

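Per the submitters' processing notes, reads were handled with CASAVA 1.8 and STAR 2.5 on GRCm38, and DESeq2 1.24.0 was used by the authors. The counting program was not given in the sources used here, nor were its annotation and strand. The authors deposited whole-number counts per gene, called raw counts by them, and 2 tables of their own tests (log2 fold change, p-value, adjusted p-value); the layout of these deposited files led to their unit being recorded as other. Their sign was read from Cldn10, at -12.2 in the proximal table.

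Symbols, positions and merged exon lengths came from GENCODE M21 (54723 of 54752 genes matched), and 1 listed gene, Ankh, was matched through its RefSeq symbol Ank. Libraries were scaled with trimmed means (TMM), leaving out 30% of the log ratios and 5% of the intensities. A gene was kept with about 10 counts in a number of libraries equal to the smallest group's, and 15 in all. limma 3.58.1 in R 4.3.3 was run with voom weights (prior count 0.5), on the groups of each comparison, over all genes kept, with Benjamini-Hochberg adjustment and a threshold of 0.05. Only the 10 genes and the listed genes are printed. Levels are means with SD of CPM, and a level of 0 was bounded with 3 counts per library. Such bounds and counting intervals cover counting error only, as the reads carry no molecular identifiers. Single values and 5 ratios went through exact permutation, two-sided (scipy 1.17.1). The fit was tested on simulated data.

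All 10 genes are named. Of each of 4 lists of related genes, at most 4 with the smallest p per comparison are named. The genes most like Slc34a1 and Kl were the 3 with the highest Pearson r. The genes, lists, markers and tests were chosen with earlier results of these data known. The alternatives were other scalings, filters, weights and models, 1 fit of all libraries, the library number range, the replicate block, other pseudocounts and leaving out each library. 0 columns belonged to other samples.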

Additional observations from a re-analysis of the deposited data

Results flagged for a closer look

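Among the 26 sets of 4 libraries with counts of 1 of the 10 genes, 3 held a library far from the other libraries of its group by Dixon's test. Chance flags about 1 in 20 such sets, but a set of 0, 0, 0 and 2 counts is flagged by construction, so that rate does not apply to 2 of the 3. Pth1r in WT proximal tubule was 46.8 CPM in replicate 1, below the other 3 libraries, which lay within 1 CPM of each other. Pdzk1 in KO distal tubule was 0.0497 CPM in replicate 7, which is 2 counts where the other 3 libraries had 0. Cyp24a1 in WT distal tubule was 0.0428 CPM in replicate 4, again 2 counts where the other 3 libraries had 0. No gene of the 10 passed the threshold for a difference between segments in the KO change.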

How the results depend on the processing

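In KO proximal tubule 22 genes were called, and the count was 80 with no filter, 36 with a stricter filter, 40 with sample quality weights, 123 in 1 fit of all 15 libraries, and 2 to 18 without 1 library in turn. Of the 10 genes, 0 were called there, but 1, Slc34a3, with no filter and in 1 fit of all 15 libraries. In KO distal tubule 4 genes were called with no filter in place of 0. For the difference between segments, the count of 0 became 1 with no filter, 5 with a trend model (limma), and 0 to 1 without 1 library. The cause was not tested. Of 780 values of single genes under an alternative, 743 kept their direction and their side of the threshold, 8 passed it anew, 1 lost it and 28 changed sign.

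Sign changes, none of them called, were as follows. With sample quality weights, the proximal KO change was 0.17 for Slc20a1 and -0.048 for Pdzk1. Without WT replicate 6 and KO replicate 7 it was -0.063 for Pdzk1, -0.23 for Cyp24a1 and -0.16 for Pth1r. For Pth1r it was -0.0056 with nuclear protein-coding genes only and -0.0043 with the library number range as a covariate. Without 1 library in turn, the proximal change ran from -0.25 to 0.0066 for Slc34a1, from -0.33 to 0.26 for Slc20a1, from -0.089 to 0.15 for Pdzk1 and from -0.19 to 0.23 for Pth1r. The distal change ran from -0.44 to 0.026 for Slc20a1, from -0.27 to 0.046 for Slc20a2, from -0.0081 to 0.32 for Vdr and from -0.10 to 0.10 for Kl. The difference between segments ran from -0.055 to 0.54 for Slc34a1 and from -0.11 to 0.46 for Slc20a1. The distal difference in the log2 ratio of Slc20a2 to Slc20a1 ran from -0.248 to 0.272.

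Replicate numbers 1, 2 and 3 in WT and 5 and 7 in KO are shared by both segments, but deviations of same-numbered libraries correlated at -0.124 to 0.0231, so the numbers are not taken as pairs. With the number as a replicate block, 5830 genes in place of 6630 were called between segments in WT and 3545 in place of 5622 in KO, on fewer libraries. Of the 10 genes, 8 were called in each genotype without the block, 4 of them with few or no distal counts, and 8 in WT and 7 in KO with the replicate block. In KO with the block Vdr had a log2 difference of -0.75 and an adjusted p of 0.203 (limma). Depth limits the distal values of Slc34a3, Cyp27b1, Cyp24a1 and Pdzk1, which rest on 0 to 11 counts per library.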
